A study of Homo sapiens with 12 samples.

Results

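The 10 genes described here belong to the transcriptional output of the Hippo pathway. They are the coactivators YAP1 and WWTR1, the DNA-binding factor TEAD1, and 7 genes known as targets or feedback regulators of these factors, namely CCN1, CCN2, ANKRD1, AMOTL1, AMOTL2, AJUBA and LATS2. They were taken by symbol through the Ensembl identifiers of the count table. All 10 were found among 60604 gene identifiers, and all 10 passed the filter on low counts with 19662 genes tested. The cells were HEK293T, a line derived from human embryonic kidney that expresses a viral large T antigen. They were kept for 48 h after lipofection in 3 groups. One group of dishes received the vector that the labels call sgRNA-dCas9-VP160-P2A-EGF with 6 CD34-gRNAs, guide RNAs directed at the promoter of CD34. Another received the same vector without the guides. The last received no plasmid and is described both as non-transfected and as given transfection reagents only. The protein dCas9-VP160 is a cleavage-dead Cas9 fused to an activation domain. Transfected dishes received 5.4 pmol of plasmid in total. The labels do not give the dose of the dCas9-VP160 vector in each group. No group received an unrelated plasmid, so effects of plasmid, lipofection and protein cannot be told apart. Likewise, guides and a different dose of the vector cannot be told apart between the transfected groups.

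Each group had 4 libraries, from 2 experiments on separate batches of cells with 2 technical replicates each, and the libraries held 6750035 to 11932244 gene counts. CD34 itself had 664 to 942 counts in the libraries with guides, 7 to 10 with dCas9-VP160 alone and 13 to 28 without plasmid. Of the marker lists, kidney epithelial genes summed to 1165 to 1233 CPM (counts scaled to a common library size by TMM) with guides, 1197 to 1288 with dCas9-VP160 and 1042 to 1181 without plasmid. Neuronal genes, which HEK293T is known to express, summed to 523 to 584, 474 to 546 and 328 to 382 CPM in the same groups, and fibroblast and mesenchymal genes to 281 to 335, 304 to 343 and 366 to 426. Single genes made up most of each sum. With guides these were KRT8 (846 CPM) and KRT18 (354) for kidney, NEFL (545) for neuronal and VIM (270) for fibroblast genes. The kidney markers PAX2, PAX8, LHX1, CDH1 and EPCAM averaged only 0.262, 0.936, 2.70, 0.494 and 0.435 CPM there. With dCas9-VP160 against no plasmid, 3 of 7 kidney markers were called higher (KRT8, KRT18 and EPCAM, the last at 0.876 against 0.306 CPM) and 2 lower (PAX2 and LHX1). Of 4 neuronal markers tested 3 were higher, and of 4 fibroblast markers tested 2 were lower. Of all genes tested 26.6% were higher and 24.6% lower. Endothelial genes summed to at most 5.32 CPM and blood genes to at most 5.42 in any library, and the neuronal STMN2 had 0 counts in every group. The part of these differences in the results was not tested.

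In the Hippo pathway, the kinases LATS1 and LATS2 phosphorylate YAP and its paralogue TAZ, the product of WWTR1, and so hold them in the cytoplasm. Unphosphorylated YAP and TAZ enter the nucleus, where they have no DNA-binding domain of their own and act through the TEAD factors. In cultured cells the pathway responds to cell density, attachment and tension of the actin cytoskeleton. CCN1, CCN2 and ANKRD1 are the usual reporters of its output. The values here are transcript levels, and neither the phosphorylation nor the location of YAP and TAZ was measured.

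Cells with dCas9-VP160 had more CCN1, CCN2, ANKRD1 and AJUBA transcript than cells without plasmid, and less YAP1, TEAD1 and AMOTL1. ANKRD1 stood out with a 7.54-fold rise, against 1.89-fold for CCN1 and 1.75-fold for CCN2. YAP1 fell to 0.643 times its level without plasmid, while its paralogue WWTR1 was not called. When the guides were present as well, ANKRD1, CCN2 and AMOTL2 were lower than with dCas9-VP160 alone and AMOTL1 was higher. Against cells without plasmid, the cells with guides still had more CCN1, CCN2, ANKRD1 and AJUBA and less YAP1, TEAD1 and AMOTL2.

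Genes are called changed where edgeR's quasi-likelihood test gave an adjusted p under 0.05, with Benjamini-Hochberg adjustment over all genes tested and the experiment as a block. For dCas9-VP160 against no plasmid, 4 members were higher and 3 lower, or 70% of the 10, beside 51.2% of all genes tested (26.6% higher and 24.6% lower). The median log2 fold change was 0.051 over the members and -0.0020 over all genes, and the median absolute value was 0.37 and 0.29. For the guides against no plasmid the counts were again 4 and 3, beside 52.6% of all genes (26.7% higher and 25.9% lower), with medians of 0.10 and -0.016. For the guides against dCas9-VP160, 1 member was higher and 3 lower, or 40%, beside 7.56% of all genes (4.16% higher and 3.41% lower). There the medians were -0.075 over the members and -0.0040 over all genes, and without the experiment as a block 0 members and 1 gene in all were called. The first 2 of these comparisons share the cells without plasmid, and the libraries of each transfected group enter 2 comparisons.

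**Figure D1:**
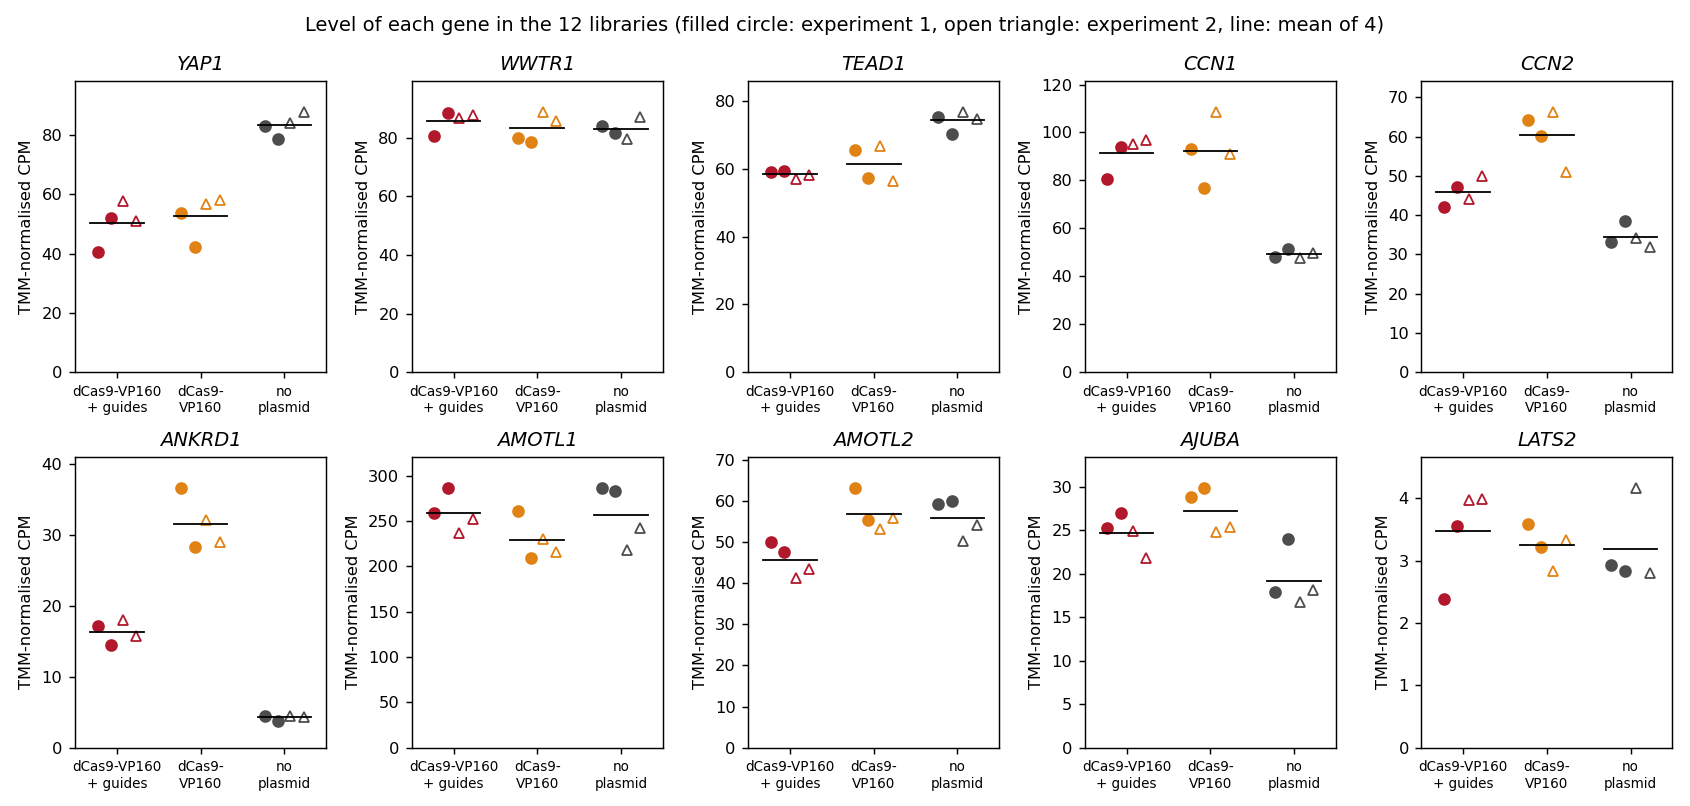
Level of each of the 10 genes in the 12 libraries, in TMM-normalised CPM on a linear axis from 0, for dCas9-VP160 with CD34 guides, dCas9-VP160 and no plasmid. Filled circles are experiment 1, open triangles experiment 2 and lines the mean of 4 libraries. ANKRD1 lies at 14.5 to 18.0 CPM with guides, 28.4 to 36.7 with dCas9-VP160 and 3.72 to 4.51 without plasmid, and YAP1 is lower in all 8 transfected libraries than in the 4 without plasmid.

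YAP1 encodes the coactivator YAP (ENSG00000137693, chromosome 11, 102110461 to 102233423, plus strand, GRCh38). In replicates 1 and 2 of experiment 1 and then of experiment 2, its level was 40.5, 52.1, 57.9 and 51.2 CPM with guides and 53.8, 42.3, 56.8 and 58.0 CPM with dCas9-VP160. Without plasmid it was 83.1, 78.6, 84.2 and 87.8 CPM. Both transfected groups lay wholly below the cells without plasmid and overlapped each other. With dCas9-VP160 YAP1 fell by 0.64 on the log2 scale (SE 0.06, adjusted p = 3.63e-10), and with the guides it fell by 0.71 against no plasmid (SE 0.06, adjusted p = 5.42e-11). Between the guides and dCas9-VP160 the difference was -0.08 with a 95% interval of -0.20 to 0.05 (adjusted p = 0.527). The antisense gene AP000942.2 shares 628 exon bases with YAP1. It averaged 9.13 CPM with guides, 8.46 with dCas9-VP160 and 13.9 without plasmid, and fell by 0.71 with dCas9-VP160 (adjusted p = 7.60e-06). The library kit in the protocol does not mark the strand, although the design text calls the assay dirRNAseq. Whether the counting used strand is not stated, so reads of the overlapping stretch cannot be assigned to either gene.

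WWTR1, the gene of TAZ (ENSG00000018408, chromosome 3, 149517235 to 149736714, minus strand), was not called in any comparison. It ranged from 80.6 to 88.4 CPM with guides, from 78.5 to 88.8 with dCas9-VP160 and from 79.8 to 87.3 without plasmid, so all 3 groups overlapped. Its log2 difference from no plasmid was 0.0069 with dCas9-VP160 (95% interval -0.10 to 0.11) and 0.05 with guides (-0.05 to 0.16). Its antisense partner WWTR1-AS1, which shares 795 exon bases, was at 11.1, 11.4 and 11.5 CPM with guides, with dCas9-VP160 and without plasmid. Per kilobase of exon, the ratio of WWTR1 to YAP1 transcript was 1.28 ± 0.122 with guides and 1.17 ± 0.0524 with dCas9-VP160, against 0.749 ± 0.0282 without plasmid (SD, n = 2 experiments). The ratio was above 1 in both transfected groups and below it without plasmid. With dCas9-VP160 the levels themselves met within 1 SD (9.90 ± 0.635 for WWTR1 and 8.48 ± 0.922 CPM per kilobase for YAP1), and without plasmid both genes averaged 82.9 CPM, so their order there rests on the exon lengths.

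TEAD1 is the member of the TEAD family on the list (ENSG00000187079, chromosome 11, 12674591 to 12944483, plus strand). Its level was 59.0, 59.5, 57.1 and 58.3 CPM with guides, 65.6, 57.4, 66.7 and 56.4 with dCas9-VP160, and 75.4, 70.3, 76.7 and 74.8 without plasmid. The cells without plasmid lay above every transfected library. TEAD1 fell by 0.26 with dCas9-VP160 (SE 0.05, adjusted p = 2.88e-04) and by 0.33 with guides (SE 0.06, adjusted p = 1.49e-05) against no plasmid, and the guides and dCas9-VP160 were not told apart (-0.07, 95% interval -0.19 to 0.04).

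The other TEAD genes did not all move with TEAD1. TEAD2 fell by 0.69 with dCas9-VP160 (SE 0.07, adjusted p = 2.25e-09) and by 0.83 with guides against no plasmid (SE 0.07, adjusted p = 1.10e-10). TEAD4 rose by 0.75 (SE 0.08, adjusted p = 6.12e-09) and by 0.58 (SE 0.08, adjusted p = 9.21e-07) in the same comparisons. TEAD3 was not called in either, at -0.0044 and 0.04. Per kilobase of exon, TEAD4 made up 39.0 ± 0.0371% of the summed TEAD transcript with guides and 40.8 ± 0.289% with dCas9-VP160, against 23.5 ± 0.305% without plasmid (SD, n = 2). TEAD2 made up 26.01 ± 0.371% and 26.5 ± 0.659%, against 41.5 ± 2.35% without plasmid. TEAD1 made up 16.8 ± 0.436%, 16.4 ± 1.43% and 19.1 ± 1.25% in the same order of groups. The summed level of the 4 genes was 33.8 ± 1.60 CPM per kilobase with guides, 36.7 ± 3.83 with dCas9-VP160 and 37.6 ± 1.30 without plasmid. Per kilobase, the most abundant TEAD transcript was therefore TEAD4 in the transfected groups and TEAD2 without plasmid, at similar sums. The place of TEAD1 in that order rests on the exon lengths. In CPM, TEAD1 was highest in every group, at 58.5 with guides, 61.6 with dCas9-VP160 and 73.7 without plasmid. TEAD4 was at 30.0, 34.0 and 20.1 CPM and TEAD2 at 26.2, 28.9 and 46.6 in the same order of groups.

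**Figure D2:**
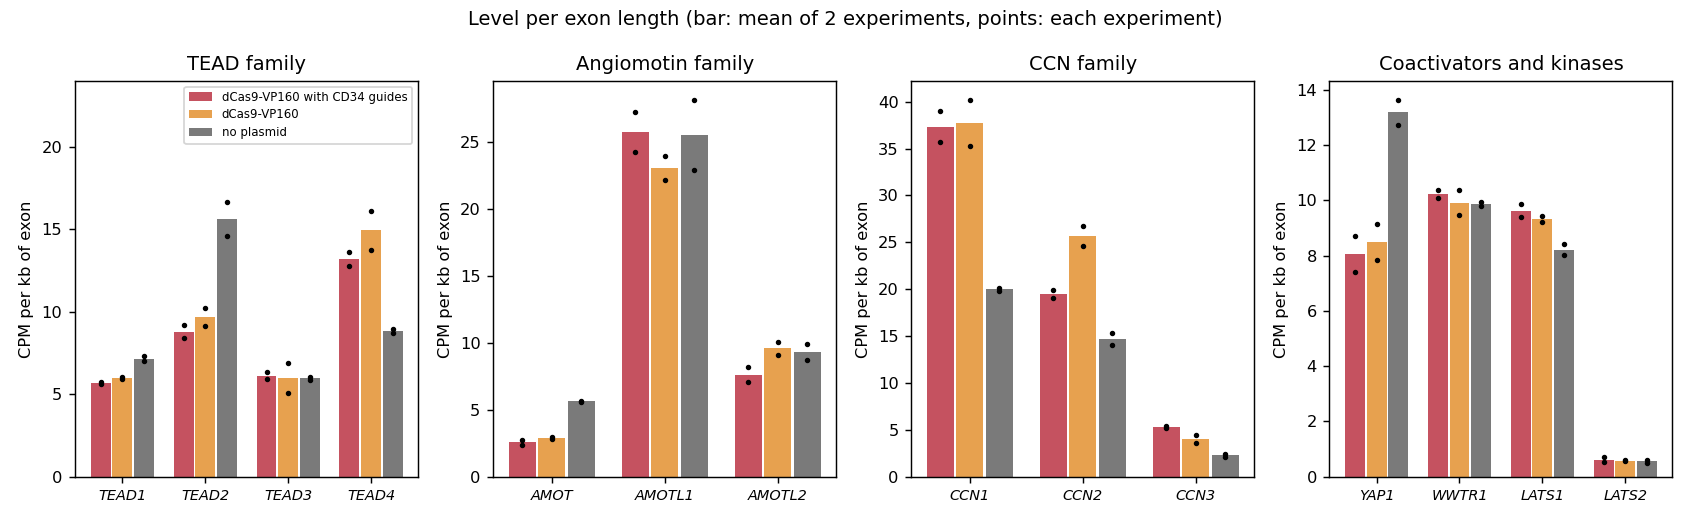
Level per exon length, in CPM per kilobase, of the TEAD, angiomotin and CCN families and of the coactivators and LATS kinases, for dCas9-VP160 with CD34 guides, dCas9-VP160 and no plasmid. Bars are means of 2 experiments, points are the experiments, and each panel has its own linear axis from 0. TEAD2 and TEAD4 trade places between the transfected groups and the cells without plasmid, and AMOT, YAP1 and CCN1 show large differences between those groups.

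The upstream sequences of CCN2, ANKRD1 and YAP1 are shown for the TEAD core they hold, because these genes differed most with dCas9-VP160 among the members with a promoter window. Each is the 250 bases upstream of the RefSeq start (GRCh38.p14), read on the gene's strand. Capitals mark the TEAD core GGAATG, which was searched on both strands, so also as CATTCC. The windows are chr6:131951373-131951622 on the minus strand for CCN2, chr10:90921088-90921337 on the minus strand for ANKRD1 and chr11:102110197-102110446 on the plus strand for YAP1.
CCN2: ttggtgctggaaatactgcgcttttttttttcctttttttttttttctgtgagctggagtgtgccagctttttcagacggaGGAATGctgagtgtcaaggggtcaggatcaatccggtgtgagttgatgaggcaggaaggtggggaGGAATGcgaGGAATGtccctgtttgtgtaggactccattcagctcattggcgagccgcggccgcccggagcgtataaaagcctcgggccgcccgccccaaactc
ANKRD1: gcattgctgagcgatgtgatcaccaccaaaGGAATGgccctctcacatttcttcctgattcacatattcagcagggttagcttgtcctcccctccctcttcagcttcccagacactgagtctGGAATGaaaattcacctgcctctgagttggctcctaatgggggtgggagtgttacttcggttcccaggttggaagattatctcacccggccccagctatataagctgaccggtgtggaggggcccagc
YAP1: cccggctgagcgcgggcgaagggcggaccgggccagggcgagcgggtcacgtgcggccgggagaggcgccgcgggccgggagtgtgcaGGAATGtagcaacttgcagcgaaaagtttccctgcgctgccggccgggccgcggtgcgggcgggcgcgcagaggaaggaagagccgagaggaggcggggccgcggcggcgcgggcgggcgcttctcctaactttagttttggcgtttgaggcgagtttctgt

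CCN2 held 3 matches of the core, which began 169, 104 and 95 bases upstream of the start, and 0.0826% of 35116 upstream windows in the RefSeq table held 3 or more. ANKRD1 held 2, at 220 and 128 bases upstream, beside 0.94% of windows with 2 or more, and YAP1 held 1 at 162 bases, beside 11.9% of windows with at least 1. Of the 8 members with a window, 5 held a match in 1 of their windows, the others being AMOTL2 at 69 bases and AJUBA at 59. AMOTL2 and AJUBA had 2 windows each. The window at the annotated 5' end of each gene held 0 matches, and the match lay in the window of a start further inside the gene. WWTR1, AMOTL1 and LATS2 held none, and TEAD1 and CCN1 had no entry. ANKRD1 also held 1 match of the AP-1 motif TGANTCA at 195 bases upstream, a motif found in 6.57% of windows and in no other window of a member. YAP1, which fell, and CCN2, ANKRD1 and AJUBA, which rose, all held the core in 1 window, and a match is a description of the letters, not a site of binding.

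ANKRD1 encodes a cardiac ankyrin repeat protein of stressed muscle (ENSG00000148677, chromosome 10, 90912096 to 90921276, minus strand). Its level was 17.2, 14.5, 18.0 and 15.8 CPM in the libraries with guides, from 111 to 163 counts. With dCas9-VP160 it was 36.7, 28.4, 32.2 and 29.1 CPM, from 194 to 379 counts, and without plasmid 4.46, 3.72, 4.51 and 4.39 CPM, from 38 to 47 counts. The 3 groups did not overlap, with dCas9-VP160 highest and the guides between the other two. Of 19662 genes tested, its rise with dCas9-VP160 was the 80th from the top, at 2.92 on the log2 scale (SE 0.11, adjusted p = 1.26e-17). With guides the difference from no plasmid was 1.96, or 3.89-fold (SE 0.13, adjusted p = 6.23e-13). With guides it was 0.515 times its level with dCas9-VP160, or -0.96 on the log2 scale (SE 0.09, adjusted p = 1.05e-07), with -1.07 in experiment 1 and -0.84 in experiment 2. ANKRD1 is the only member among the 97 genes of the authors' deposited table, which gives log2 fold changes of 2.89 (SE 0.154) for dCas9-VP160 and 1.94 (SE 0.162) for the guides against control.

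CCN1 and CCN2 encode secreted matricellular proteins, formerly CYR61 and CTGF, that bind integrins and are immediate outputs of YAP and TEAD. CCN1 (ENSG00000142871, chromosome 1, 85580761 to 85583962, plus strand) was at 80.5, 93.9, 95.02 and 96.8 CPM with guides, 93.0, 77.0, 108.5 and 91.1 with dCas9-VP160, and 48.0, 51.2, 47.4 and 49.8 without plasmid. Both transfected groups lay above the cells without plasmid and overlapped each other. The log2 fold change against no plasmid was 0.92 with dCas9-VP160 (SE 0.06, adjusted p = 3.43e-13) and 0.90 with guides (SE 0.06, adjusted p = 5.02e-13). Between guides and dCas9-VP160 it was -0.02, with an interval of -0.13 to 0.09 (adjusted p = 0.896).

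CCN2 (ENSG00000118523, chromosome 6, 131948176 to 131951373, minus strand) was at 42.0, 47.1, 44.2 and 50.03 CPM with guides, at 64.3, 60.2, 66.2 and 51.0 with dCas9-VP160, and at 33.2, 38.4, 34.2 and 31.96 without plasmid. As for ANKRD1, the 3 groups did not overlap and the guides lay in between. It rose by 0.80 with dCas9-VP160 (SE 0.06, adjusted p = 6.74e-11) and by 0.41 with guides (SE 0.07, adjusted p = 1.37e-05) against no plasmid. With guides it fell by 0.40 against dCas9-VP160 (SE 0.06, adjusted p = 2.13e-04). Per kilobase of exon, the ratio of CCN1 to CCN2 was 1.91 ± 0.0607 with guides, 1.48 ± 0.223 with dCas9-VP160 and 1.36 ± 0.0684 without plasmid (SD, n = 2). The antisense gene AL133346.1 shares 195 exon bases with CCN2 and was at 2.26, 2.54 and 1.30 CPM with guides, with dCas9-VP160 and without plasmid. Like CCN2, it was called higher with dCas9-VP160 (0.98, adjusted p = 0.00275) and with guides (0.81, adjusted p = 0.0148) against no plasmid. Between guides and dCas9-VP160 it was not called (-0.17, adjusted p = 0.752). From the technical replicate 2 libraries alone, the fall of CCN2 with guides was -0.19 and was not called (adjusted p = 0.311), and from experiment 2 alone it was -0.31 (adjusted p = 0.116).

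A relative outside the list, CCN3, an antiproliferative member of the family, rose by 0.81 with dCas9-VP160 against no plasmid (SE 0.13, adjusted p = 1.05e-05). Unlike CCN2, it was higher again with guides than with dCas9-VP160, at 14.2 ± 0.325 CPM against 10.7 ± 1.62 (SD, n = 2), which is 0.41 on the log2 scale (SE 0.12, adjusted p = 0.0273). The libraries of these groups overlapped, and DESeq2 gave no adjusted p for it.

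**Figure D3:**
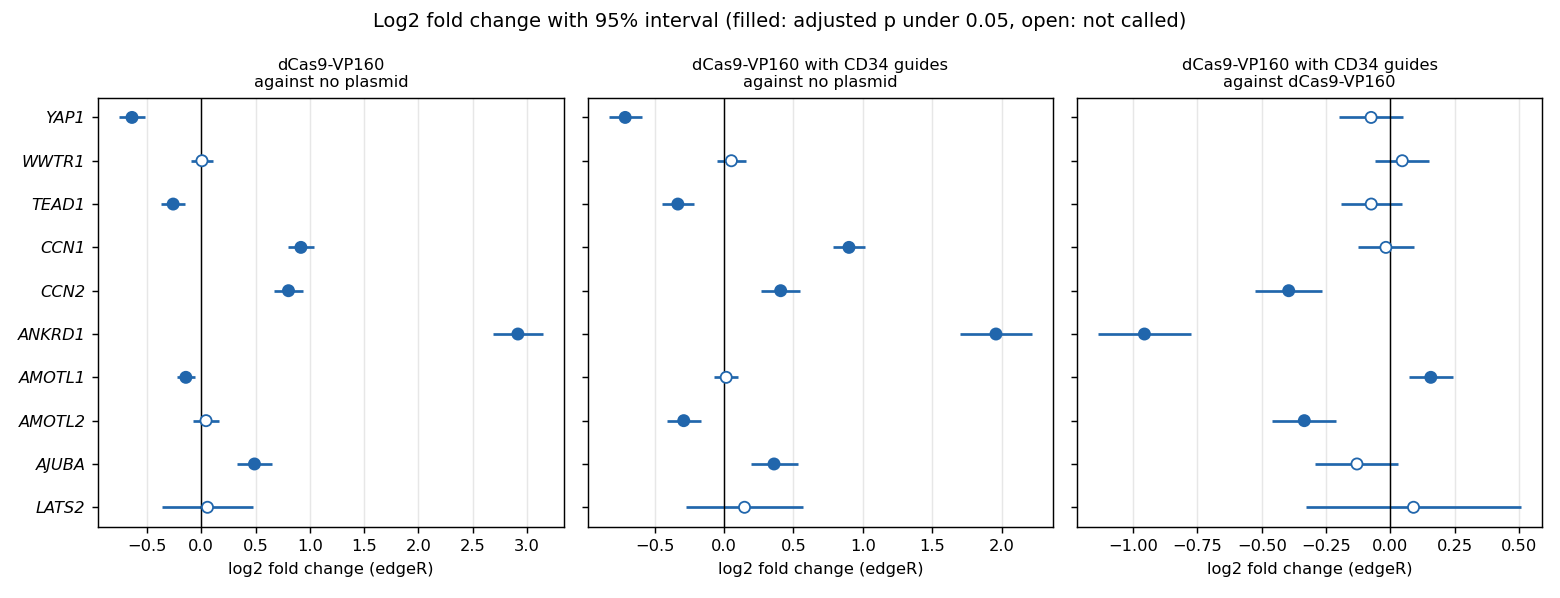
Log2 fold change of the 10 genes with its 95% interval in 3 comparisons, from the edgeR fit on 6 summed libraries. Filled points have an adjusted p under 0.05, open points do not, and each panel has its own axis. CCN1 sits near 0.9 in both comparisons with no plasmid and at -0.02 between guides and dCas9-VP160, where ANKRD1 lies at -0.96 and CCN2 at -0.40.

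The angiomotins are junction scaffolds that bind YAP and TAZ and retain them outside the nucleus, and AMOTL2 is itself a feedback target. AMOTL2 (ENSG00000114019, chromosome 3, 134355874 to 134375479, minus strand) was at 50.03, 47.6, 41.3 and 43.3 CPM with guides, 63.1, 55.3, 53.2 and 55.8 with dCas9-VP160, and 59.3, 59.9, 50.2 and 54.0 without plasmid. The libraries with guides lay below both other groups, which overlapped. With guides it fell by 0.33 against dCas9-VP160 (SE 0.06, adjusted p = 7.18e-04) and by 0.29 against no plasmid (SE 0.06, adjusted p = 2.14e-04). With dCas9-VP160 alone its difference from no plasmid was 0.04 (95% interval -0.07 to 0.16). The fall against dCas9-VP160 was not called from experiment 1 alone (-0.29, adjusted p = 0.0720) or from the technical replicate 2 libraries alone (-0.30, adjusted p = 0.0680).

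AMOTL1 (ENSG00000166025, chromosome 11, 94706431 to 94876753, plus strand) held the most counts of the members, at 237 to 287 CPM with guides, 209 to 261 with dCas9-VP160 and 218 to 286 without plasmid, and all groups overlapped. It was called lower with dCas9-VP160 than without plasmid by -0.14 (SE 0.04, adjusted p = 0.00568) and higher with guides than with dCas9-VP160 by 0.16 (SE 0.04, adjusted p = 0.0195). Within experiments 1 and 2 the first difference was -0.23 and -0.05, and from the technical replicate 1 libraries alone it was -0.02 (adjusted p = 0.816) and the second 0.02 (adjusted p = 0.918). The first call was lost in 6 of the 24 alternative ways of processing given below. Among these, it was lost without replicate 2 of experiment 2 of the cells without plasmid (-0.11, adjusted p = 0.142) or without replicate 2 of experiment 1 with dCas9-VP160 (-0.08, adjusted p = 0.0862). The value was -0.22 without replicate 1 of that experiment and group. The second was lost without any of 4 libraries: replicate 2 of experiment 2 without plasmid (0.16, adjusted p = 0.123), replicates 2 of experiments 1 and 2 with dCas9-VP160 (0.10 and 0.14, adjusted p = 0.152 and 0.0931) and replicate 2 of experiment 1 with guides (0.13, adjusted p = 0.0850). It was 0.24 without replicate 1 of experiment 1 with dCas9-VP160 (adjusted p = 0.0188). AMOT, the founding member of the family and not on the list, averaged 21.8 ± 2.20 CPM with guides and 24.8 ± 1.11 with dCas9-VP160, against 47.9 ± 0.225 without plasmid (SD, n = 2). It fell by 1.14 (SE 0.07, adjusted p = 7.96e-13) and by 0.95 (SE 0.07, adjusted p = 1.67e-11) in these comparisons. Per kilobase, AMOTL1 made up 71.7 ± 0.593% of angiomotin transcript with guides, 64.8 ± 0.364% with dCas9-VP160 and 62.98 ± 2.004% without plasmid. The antisense gene AP002383.2 shares 496 exon bases with AMOTL1. It was at 17.4, 15.7 and 16.7 CPM with guides, with dCas9-VP160 and without plasmid, and was not called in any comparison.

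AJUBA is a LIM-domain protein of adherens junctions that binds and inhibits LATS kinases (ENSG00000129474, chromosome 14, 22971174 to 22982642, minus strand). Its level was 25.2, 26.9, 24.9 and 21.8 CPM with guides, 28.9, 29.9, 24.8 and 25.3 with dCas9-VP160, and 18.0, 24.0, 16.8 and 18.1 without plasmid. The libraries with dCas9-VP160 lay above those without plasmid, and those with guides overlapped both. AJUBA rose by 0.49 with dCas9-VP160 (SE 0.08, adjusted p = 1.04e-05) and by 0.36 with guides (SE 0.08, adjusted p = 6.09e-04) against no plasmid. With guides the value was 0.21 from the technical replicate 2 libraries alone, which was not called (adjusted p = 0.135). Between guides and dCas9-VP160 the difference was -0.13 (interval -0.29 to 0.03). Its relatives LIMD1 and WTIP were not called in any comparison.

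LATS2, a kinase that phosphorylates YAP and TAZ and is also their feedback target, was scarce (ENSG00000150457, chromosome 13, 20973032 to 21061547, minus strand). It had 21 to 36 counts per library with guides, 22 to 40 with dCas9-VP160 and 25 to 36 without plasmid, where a count of 0 would have allowed up to 0.444 CPM in the shallowest library. Its levels of 2.38 to 3.99, 2.84 to 3.58 and 2.80 to 4.16 CPM overlapped. At this depth its difference between dCas9-VP160 and no plasmid was 0.06 with an interval of -0.36 to 0.47, so a moderate change in either direction was not detectable. LATS1, at 80.5 ± 1.17 CPM with dCas9-VP160 and 71.0 ± 2.55 without plasmid (SD, n = 2), rose by 0.18 (SE 0.05, adjusted p = 0.00453), and by 0.23 with guides (SE 0.05, adjusted p = 6.30e-04). The libraries with dCas9-VP160 overlapped those without plasmid. DESeq2 did not call that rise (0.18, adjusted p = 0.0811) but called the rise with guides (0.23, adjusted p = 0.0140).

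Levels of different genes were compared per kilobase of exon. With guides the order was CCN1 (37.3 ± 2.35 CPM per kilobase), AMOTL1 (25.8 ± 2.11), CCN2 (19.5 ± 0.610), WWTR1 (10.2 ± 0.208), ANKRD1 (8.31 ± 0.409), YAP1 (8.06 ± 0.936), AMOTL2 (7.61 ± 0.794), TEAD1 (5.69 ± 0.122), AJUBA (4.16 ± 0.310) and LATS2 (0.624 ± 0.125; SD, n = 2). ANKRD1, YAP1 and AMOTL2 could not be ordered there, since the ranges of 1 SD met. With dCas9-VP160 the first 4 places went to CCN1 (37.8 ± 3.45), CCN2 (25.7 ± 1.54), AMOTL1 (23.1 ± 1.30) and ANKRD1 (16.1 ± 1.05), where CCN2 and AMOTL1 met, as did WWTR1 with AMOTL2 and AMOTL2 with YAP1. Without plasmid AMOTL1 (25.6 ± 3.69) came before CCN1 (19.97 ± 0.289), CCN2 (14.7 ± 0.952) and YAP1 (13.2 ± 0.640), and ANKRD1 (2.13 ± 0.147) was next to last. There CCN2 and YAP1 met, and WWTR1 and AMOTL2.

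Other genes of the pathway were read from 4 further lists. The list of Hippo kinases and regulators had 29 genes, and all passed the filter. With dCas9-VP160 against no plasmid 7 of them rose and 13 fell, with a median log2 fold change of -0.10, so 24.1% were higher and 44.8% lower beside 26.6% and 24.6% of all genes. DESeq2 called 3 of the 29 higher and 8 lower, beside 3406 and 2727 of the 19662 genes tested. RASSF1, a scaffold of the upstream MST kinases, was at 72.9 ± 7.16 CPM with dCas9-VP160 against 28.3 ± 2.48 without plasmid (SD, n = 2; log2 fold change 1.37, adjusted p = 4.08e-16). The atypical cadherin FAT4 (-1.06) and the kinase TNIK (-0.92) fell. With guides against no plasmid the counts were again 7 and 13, or 24.1% and 44.8% beside 26.7% and 25.9% of all genes. The same 3 genes changed most among those with a mean of at least 5 CPM, RASSF1 at 1.25, FAT4 at -1.57 and TNIK at -0.93. Below that level, the cadherin DCHS1, a ligand of FAT4, fell by 1.30 with guides and by 1.36 with dCas9-VP160 against no plasmid, at 2.497 and 2.44 CPM against 6.13 CPM without plasmid. With guides against dCas9-VP160, 2 were higher and 2 lower, or 13.8% beside 7.56% of all genes, among them FAT4 (-0.51, adjusted p = 0.0157), WWC2, a junction scaffold that activates LATS (-0.32, adjusted p = 0.00178), and SIKE1, a subunit of the STRIPAK phosphatase complex (0.24, adjusted p = 5.84e-04). With DESeq2 WWC2 and SIKE1 stayed called, MOB1A, a LATS cofactor and the fourth of these genes, did not (0.15, adjusted p = 0.136), and FAT4 had no adjusted p.

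Of 21 other genes known as YAP and TAZ targets, 20 passed the filter. With dCas9-VP160 against no plasmid 5 of them rose and 9 fell, with a median of -0.09, so 25% were higher and 45% lower beside 26.6% and 24.6% of all genes. DESeq2 called 3 of the 20 higher and 5 lower, beside 3406 and 2727 of the 19662 genes tested. GADD45A, a growth arrest gene that also answers to stress pathways, was at 131.7 ± 16.4 CPM with dCas9-VP160 against 61.3 ± 7.09 without plasmid (SD, n = 2; 1.1, adjusted p = 6.98e-16). NUAK2, a kinase that promotes actomyosin contraction, rose by 1.0 (adjusted p = 1.80e-07), while CCDC80, a matrix protein, fell by 0.75 (adjusted p = 3.00e-06). With guides against no plasmid 5 were higher and 9 lower, or 25% and 45% beside 26.7% and 25.9% of all genes. With guides against dCas9-VP160, edgeR called 0 of 20 in either direction, beside 7.56% of all genes. DESeq2 also called 0 and gave no adjusted p for 12 of them. Without adjustment, 2 passed 0.05 in edgeR, GADD45A and the EGF receptor ligand AREG, both lower with guides. The wider target list held called genes on both sides in the comparison where CCN1, CCN2 and ANKRD1 rose.

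Targets of the actin-regulated factors MRTF and SRF, which share CCN1 and CCN2 with YAP, were read because the same cytoskeletal cues reach both. This list also held the genes of the factors themselves, SRF, MRTFA and MRTFB. Of these, MRTFB was among the lower genes with dCas9-VP160 (-0.32, adjusted p = 5.48e-05) and with guides (-0.24, adjusted p = 0.00109) against no plasmid. With 15 of 16 tested, 3 passed as higher and 5 as lower with dCas9-VP160 against no plasmid (median -0.13), or 20% and 33.3% beside 26.6% and 24.6% of all genes. DESeq2 called 3 of the 15 higher and 4 lower, beside 3406 and 2727 of the 19662 genes tested. The actin-binding CNN2 (1.22, adjusted p = 7.87e-13), the LIM protein FHL2 (0.91, adjusted p = 3.26e-12) and the smooth muscle actin ACTA2 (0.57, adjusted p = 1.02e-10) rose. With guides against no plasmid 4 were higher and 6 lower, or 26.7% and 40% beside 26.7% and 25.9% of all genes, with the same 3 genes changing most. With guides against dCas9-VP160, CNN2 was the 1 called gene (0.23, adjusted p = 0.0347), or 6.67% beside 7.56% of all genes. That call was lost with library totals alone (0.20, adjusted p = 0.0754) and with DESeq2 (0.24, adjusted p = 0.310). Among relatives of the members, 15 of 18 passed the filter. Under dCas9-VP160 against no plasmid 6 were higher and 3 lower (40% and 20%), beside 26.6% and 24.6% of all genes. DESeq2 called 5 and 3 of them. With guides against no plasmid 5 were higher and 3 lower, beside 26.7% and 25.9%, and against dCas9-VP160 CCN3 was the 1 called gene. VGLL3, a cofactor that competes for TEAD, was at 17.8 ± 1.29 CPM with dCas9-VP160 against 9.09 ± 1.13 without plasmid (0.98, adjusted p = 3.90e-08). Its relative VGLL4 went the other way, at 34.1 ± 0.371 CPM against 47.8 ± 0.120 (-0.49, adjusted p = 5.50e-07).

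**Figure D4:**
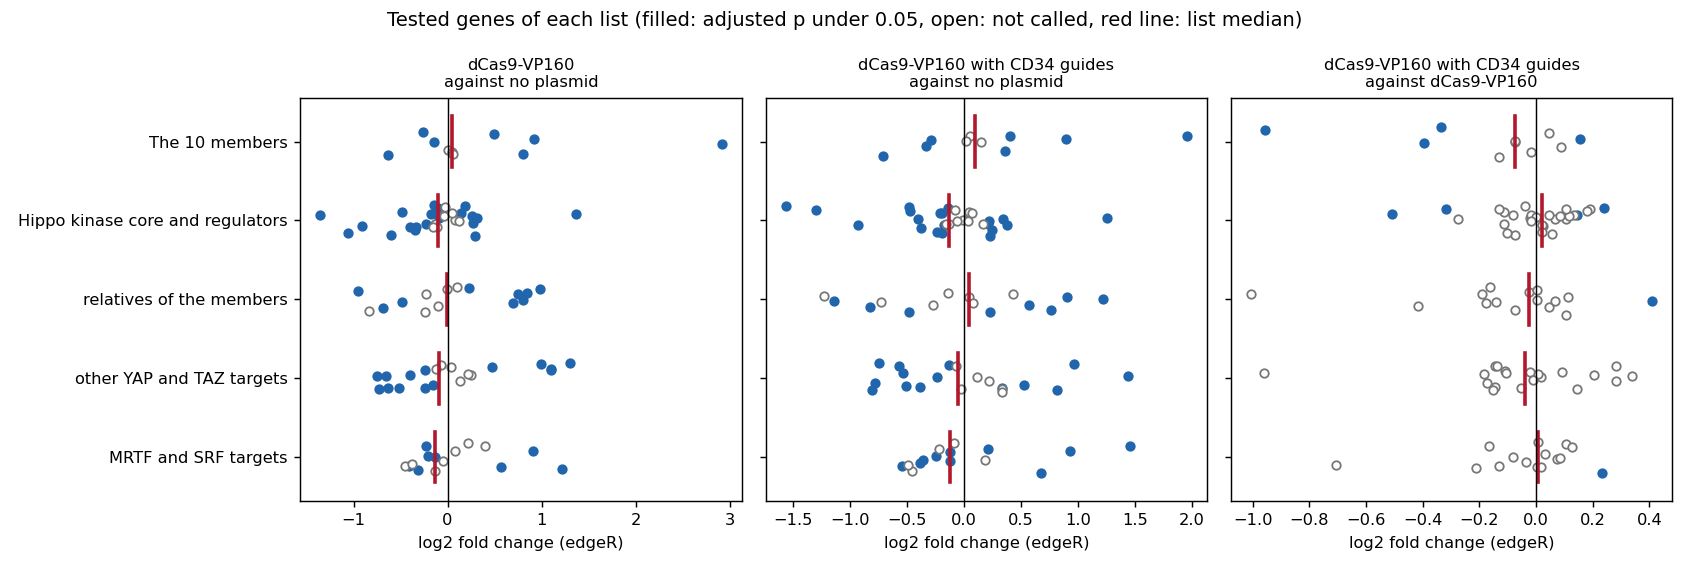
Log2 fold changes of the tested genes of 5 lists in 3 comparisons, with 1 point per gene. Filled points have an adjusted p under 0.05, open points do not, red lines are list medians, and each panel has its own axis. Each list has a median between -0.13 and 0.10 in every panel, with called genes on both sides in the 2 comparisons against no plasmid.

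The genes whose levels followed the members most closely were ranked by Pearson's r over the 6 summed libraries among genes with a mean of at least 5 CPM, as a description, since 3 groups and 2 experiments set most of that variation. For ANKRD1 they were SNHG15, TNFAIP3, HBEGF, LPXN and TAF4B (r = 0.996 to 0.999). TNFAIP3, an inhibitor of NF-kB, was at 19.8 CPM with guides and 29.7 with dCas9-VP160, against 10.2 without plasmid, and HBEGF, a ligand of the EGF receptor, at 9.62 and 13.3, against 4.55. For CCN1 the nearest were ULK4, GOT1, IKZF5, CFAP57 and BAG1 (r = 0.997 to 0.998), which like CCN1 had near-equal levels in both transfected groups. For CCN2 they were B3GALNT2, DHX37, ZNF598, CCT6P3 and BRAF (r = 0.989 to 0.997), and CCT6P3 is a pseudogene, so its counts may hold reads of the gene it copies. No gene was among the nearest 5 of more than 1 of these 3 members.

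Both batches of cells gave the members' changes in the same direction wherever a member was called. ANKRD1 changed by 3.02 and 2.75 with dCas9-VP160 against no plasmid in experiments 1 and 2, CCN1 by 0.81 and 1.02, CCN2 by 0.80 and 0.81, and YAP1 by -0.70 and -0.58. In edgeR's interaction test on the 12 libraries, 0 of 10 members differed in response between experiments in any comparison, beside 0.0116% of 17218 genes for dCas9-VP160 against no plasmid and 0% for the other comparisons. Without adjustment 1 member passed 0.05, AMOTL1 for dCas9-VP160 against no plasmid (difference 0.22). The 2 technical replicates of a pair set the spread of that test. As these are bulk libraries, a change within each transfected cell and a change in the share of cells that took up plasmid cannot be told apart.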

How the data were processed

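RNA was sequenced from 12 libraries made from 1 ng of RNA with SMART-Seq HT and Nextera XT. Per the submitters' processing notes, Trim Galore 0.3.7, STAR 2.6.0c with hg38, Picard 2.17.1 and DESeq2 1.16.1 were used, and neither the counting program nor the annotation release is stated there or in the labels. The authors deposited raw read counts per Ensembl gene, whole numbers in 1 column per library. The authors also deposited a table of 97 genes with, per the file headers, a mean normalised signal, log2 fold changes, their SE and a Wald statistic (scores), and p-values. In all 97 rows that statistic equals the absolute log2 fold change minus 1, divided by its SE, with the sign kept (tolerance 0.001 on the log2 scale), a test against a threshold of 1.

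The 92 spike-in rows were left out. Their share was 0.719% and 0.404% of counts in experiment 1 without plasmid and at most 0.00818% elsewhere. Technical replicates of a group and experiment were summed, which left 6 libraries of 16359839 to 20968535 counts of tested genes and n = 2 experiments per group. Before summing, their counts differed by more than sampling noise in every pair (chi-square per degree of freedom 1.84 to 4.37). Genes were filtered with filterByExpr and tested in edgeR 4.0.16 (R 4.3.3) with TMM normalisation, a robust quasi-likelihood fit on all 3 groups and the experiment as a block, which the labels give as a shared batch of cells. The differences between experiments correlated at 0.616 to 0.631 between groups over 12875 genes. Benjamini-Hochberg adjustment was applied to the p-values. With the experiment as a block, these describe the spread of group differences between 2 batches of 1 cell line. The fit left 2 residual degrees of freedom per gene, beside a median of 24 prior degrees of freedom. The small p-values therefore rest mostly on a spread borrowed from all genes. SE is the absolute log2 fold change over the square root of F, intervals are 95%, and a prior count of 2 entered the values given per experiment. Levels are TMM-normalised CPM. Coordinates and exon lengths are those of GENCODE v29 on GRCh38, with the exons of all transcripts merged, so levels per kilobase are too low where a short transcript dominates. Intervals come from the edgeR fit and carry its estimate of the spread of group differences between experiments, while the limit of 3 counts covers counting error only. The script was tested on simulated data.

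The members, the lists, the rule for named genes and the alternatives were chosen with earlier results of these data known. Named are all members, their paralogues, and per list and comparison the 3 called genes with the largest change at a mean of at least 5 CPM. AREG, DCHS1, MOB1A, MRTFB and VGLL4 were named after their values were seen. Alternatives were DESeq2 1.42.0 and its size factors, library totals, 2 other filters, no block, unsummed libraries, each technical replicate or experiment alone, the compared groups alone, and each library left out.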

Additional observations from a re-analysis of the deposited data

Results flagged for a closer look

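In 2 of the 30 sets of 4 libraries (10 genes in 3 groups), 1 library stood apart by Dixon's test at the 95% level. For independent values, chance alone gives about 1 in 20. Each set holds technical replicates of 2 experiments, which are not independent, so that rate may not hold here. ANKRD1 was lowest in replicate 2 of experiment 1 without plasmid, at 3.72 CPM, with the other libraries of that group at 4.39 to 4.51. LATS2 was highest in replicate 1 of experiment 2 without plasmid, at 4.16 CPM, with the others at 2.80 to 2.93.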

How the results depend on the processing

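Against no plasmid, YAP1, TEAD1, CCN1, CCN2 and ANKRD1 kept their direction and call in all 24 alternatives with dCas9-VP160 and with guides, and AJUBA did with dCas9-VP160. The comparison of guides with dCas9-VP160 depended on the block: with no replicate block 0 members were higher and 0 lower, since 1 gene was called in all, and ANKRD1 kept its size (-0.96, adjusted p = 0.108). The block is the shared batch of cells that the labels name, so this paired design is the one reported. The 1 higher member, AMOTL1, was also lost (0 called) with library totals alone, unsummed libraries with the block, the technical replicate 1 libraries, either experiment alone and DESeq2, and leaving out libraries gave 0 to 1. The 3 lower members became 1 from the technical replicate 2 libraries, which was ANKRD1. Over all genes the calls for that comparison were 817 higher and 670 lower, 517 and 1122 with library totals, 977 and 617 with DESeq2 size factors and 276 and 83 with DESeq2.

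Values that changed sign were those of members not called, and the cause was not tested. For dCas9-VP160 against no plasmid these were WWTR1 without a filter (-2.5e-05), from the technical replicate 2 libraries (-0.037) and from experiment 1 (-0.062), AMOTL2 from replicate 2 (-0.026) and experiment 1 (-6.1e-04), and LATS2 from replicate 1 (-0.11) and experiment 2 (-0.13). For guides against dCas9-VP160 they were YAP1 (0.039), TEAD1 (0.056) and CCN1 (0.18) from replicate 2, CCN1 from experiment 1 (0.027), WWTR1 from replicate 1 (-0.0095) and experiment 2 (-5.0e-04), and LATS2 from replicate 1 (-0.038) and experiment 1 (-0.20). For guides against no plasmid they were AMOTL1 with library totals (-0.0024), from replicate 1 (-0.0024) and from experiment 1 (-0.060), and LATS2 from replicate 1 (-0.15). Leaving out single libraries gave ranges that crossed 0 for WWTR1 (-0.023 to 0.036, negative also at -0.0053) and LATS2 (-0.054 to 0.19, negative also at -0.036) with dCas9-VP160, for YAP1 (-0.14 to 0.0024) and CCN1 (-0.077 to 0.048, positive also at 0.041 and 0.033) between guides and dCas9-VP160, and for AMOTL1 (-0.019 to 0.056) with guides against no plasmid. With no block AMOTL2 (-0.29, adjusted p = 0.0749) and AJUBA (0.36, adjusted p = 0.0693) were not called for guides against no plasmid.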
